A study of Mus musculus with 8 samples.

Results

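CG methylation in liver was examined around 8 genes that encode transcription factors of hepatocyte identity, Hnf4a, Foxa1, Foxa2, Foxa3, Cebpa, Onecut1, Nr1h4 and Prox1. The genes were chosen by name for their role in liver, with no methylation value in the rule but with earlier results of these data known, and their CG sites were those in the gene span and 10 kb on each side (mm9, GENCODE annotation). Of 1411453 CG sites with at least 10 reads in at least 1 mouse, 1238 lay in these 8 windows. Of 1140011 sites with 10 reads in at least 3 mice, 1009 were in the windows, and of 176951 sites read in all 8 mice, 150 were. Each strand of a CG was counted as 1 site.

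Reduced representation bisulfite sequencing (RRBS) was performed on whole liver of 8 untreated mice, 1 female and 1 male in each of 4 groups. The groups were C57BL/6J, called B6, DBA/2J, called DBA, and their reciprocal F1 crosses, BXD with a B6 mother and DXB with a DBA mother. All mice were 16 weeks old and fasted for 16 h. In RRBS, MspI cuts DNA at CCGG and only fragments of a chosen size are read, so that CG-rich DNA is favoured. Bisulfite turns unmethylated cytosine into uracil, which is read as thymine, and the methylation level of a site, given here in percent, is the portion of its reads that still show cytosine.

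Hepatocyte identity rests on a network of transcription factors that bind each other's regulatory regions and those of liver genes. Foxa proteins are pioneer factors that bind closed chromatin early in liver development, and Hnf4a, Cebpa, Onecut1, Prox1 and the bile acid receptor Nr1h4 act on top of them to set metabolic and secretory genes. Vertebrate promoters are often CG islands, which stay unmethylated in most cell types, and developmental regulators frequently carry unmethylated DNA well past the promoter, whereas CGs in gene bodies and between genes are mostly methylated.

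Promoters of the 8 genes differed in how many CGs they offered to the assay. The 150 bases before the 5′-most annotated start are shown for the 4 genes that best span the CG-rich kind, with every CG in capitals, 5′ to 3′ on the gene's strand (mm9). These are Cebpa (chr7:35904162-35904311, plus strand), Foxa1 (chr12:58647109-58647258, minus strand), Onecut1 (chr9:74709578-74709727, plus strand) and Prox1 (chr1:191994560-191994709, minus strand).
Cebpa: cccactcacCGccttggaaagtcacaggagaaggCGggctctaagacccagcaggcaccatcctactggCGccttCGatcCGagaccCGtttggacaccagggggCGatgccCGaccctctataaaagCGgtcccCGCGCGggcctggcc
Foxa1: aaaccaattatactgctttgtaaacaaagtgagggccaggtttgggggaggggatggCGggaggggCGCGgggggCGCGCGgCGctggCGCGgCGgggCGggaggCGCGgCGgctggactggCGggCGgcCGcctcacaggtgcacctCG
Onecut1: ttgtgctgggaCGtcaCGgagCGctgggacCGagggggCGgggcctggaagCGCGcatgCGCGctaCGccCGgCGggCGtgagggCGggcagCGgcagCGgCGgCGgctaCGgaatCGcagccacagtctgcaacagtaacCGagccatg
Prox1: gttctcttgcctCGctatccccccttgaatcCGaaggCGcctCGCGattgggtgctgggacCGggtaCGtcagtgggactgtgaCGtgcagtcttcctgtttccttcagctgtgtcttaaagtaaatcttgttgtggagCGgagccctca
These sequences hold 12, 18, 21 and 9 CGs. None of the CGs in the Cebpa and Foxa1 sequences was among the sites read in 3 mice. The sites nearest to these 2 starts lay 105 bp after that of Cebpa and 371 bp after that of Foxa1. In the Onecut1 sequence, CGs number 3 to 20 were read in at least 3 mice. Its 11th CG lies in the only CCGG of the sequence and was at 13.3% on the plus strand and 24% on the minus strand, while the other measured CGs were at 2.48% or less. In the Prox1 sequence, the 6th CG lies in the CCGG and was at 15.4% and 22.2% on its strands, and the other measured CGs were at 1.14% or less.

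The promoters of Hnf4a and Nr1h4 were of the CG-poor kind. Shown are the 150 bases before the upstream start of Hnf4a (chr2:163332394-163332543, plus strand), before its downstream start (chr2:163372773-163372922, plus strand) and before the upstream start of Nr1h4 (chr10:88996331-88996480, minus strand).
Hnf4a upstream start: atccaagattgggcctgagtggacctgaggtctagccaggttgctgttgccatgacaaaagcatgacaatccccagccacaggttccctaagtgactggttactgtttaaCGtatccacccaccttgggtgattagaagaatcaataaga
Hnf4a downstream start: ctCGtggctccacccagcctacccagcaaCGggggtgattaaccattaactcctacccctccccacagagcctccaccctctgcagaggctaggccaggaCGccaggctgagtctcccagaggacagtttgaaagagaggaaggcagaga
Nr1h4 upstream start: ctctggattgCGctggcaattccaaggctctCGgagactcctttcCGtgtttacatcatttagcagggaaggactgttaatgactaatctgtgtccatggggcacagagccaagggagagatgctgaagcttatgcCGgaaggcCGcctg
They hold 1, 3 and 5 CGs, and none of these was among the sites read in 3 mice. Over 1001 bases centred on the start, Cebpa had 105 CGs, Foxa1 96, Onecut1 81, Prox1 74, Foxa3 52 and Foxa2 41, against 16 for the upstream start of Hnf4a and 17 for that of Nr1h4. The median over all 22380 protein-coding genes was 40, with quartiles of 12 and 69. Cebpa had more CGs than 94.3% of genes, Foxa1 more than 91.1%, Hnf4a more than 29.6% and Nr1h4 more than 30.9%.

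Depth differed between libraries. The 8 libraries held 10 reads at 527351 (DBA male) to 1227747 (B6 female) CG sites, with a median of 37 to 70 reads at those sites. Reads reached 100 bases from the MspI cut in 3 mice (DBA female, B6 female, BXD male), 76 bases in the males of both parent strains and 50 bases in the other 3 mice, so that different mice were read at different sites. Within 1 Mb of each gene, reads tagged by a strain SNP matched the labels of the parents with at most 1.46% of the other strain, except that the library labelled B6 male held 22.8% DBA tags around Prox1 and 9.95% around Foxa2. Stretch lengths of these 2 genes are given with and without it. A level is a mean over all liver cells, so that a change in 1 cell type and a change in the mix of cells cannot be told apart. Of 10 hepatocyte markers, only Apob and Fgb had CGs measured near a start, with a mean of 23.9% and 24% over the sites within 500 bp. On the same measure, Emr1 of Kupffer cells was at 84.6% and Pecam1 and Tie1 of endothelium at 80.7% and 70.4%, whereas the stellate genes Des, Lrat, Pdgfrb and Col1a1 were at 14.0%, 2.81%, 28.8% and 27.2% and the cholangiocyte genes Krt19, Krt7, Sox9 and Spp1 at 9.91%, 30.5%, 2.14% and 59%. The part of the cell mix in any value below was not tested.

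The windows were on the whole poorly methylated. Of the 1009 sites, 707 had a mean level over mice below 20%, 230 were between 20% and 80%, and 72 were at 80% or above. That is 70.1% low and 7.14% high, against 42.7% and 37.5% of all sites in the genome-wide set. The 8 genes fell into groups. Foxa2 and Cebpa were low through the parts of promoter and body that were read. Foxa1 was low from 371 bp after the start on through the part of the body that was read, which ended at 3763 bp. No site between 371 bp after the start and 2225 bp upstream of Foxa1 was read in 3 mice. Onecut1 was low at the promoter and in the 5′ part of the body that was read. Prox1 and Foxa3 were low at the promoter and methylated or mixed further in. Hnf4a and Nr1h4 had few low sites anywhere (6 of 48 and 4 of 31).

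**Figure D1:**
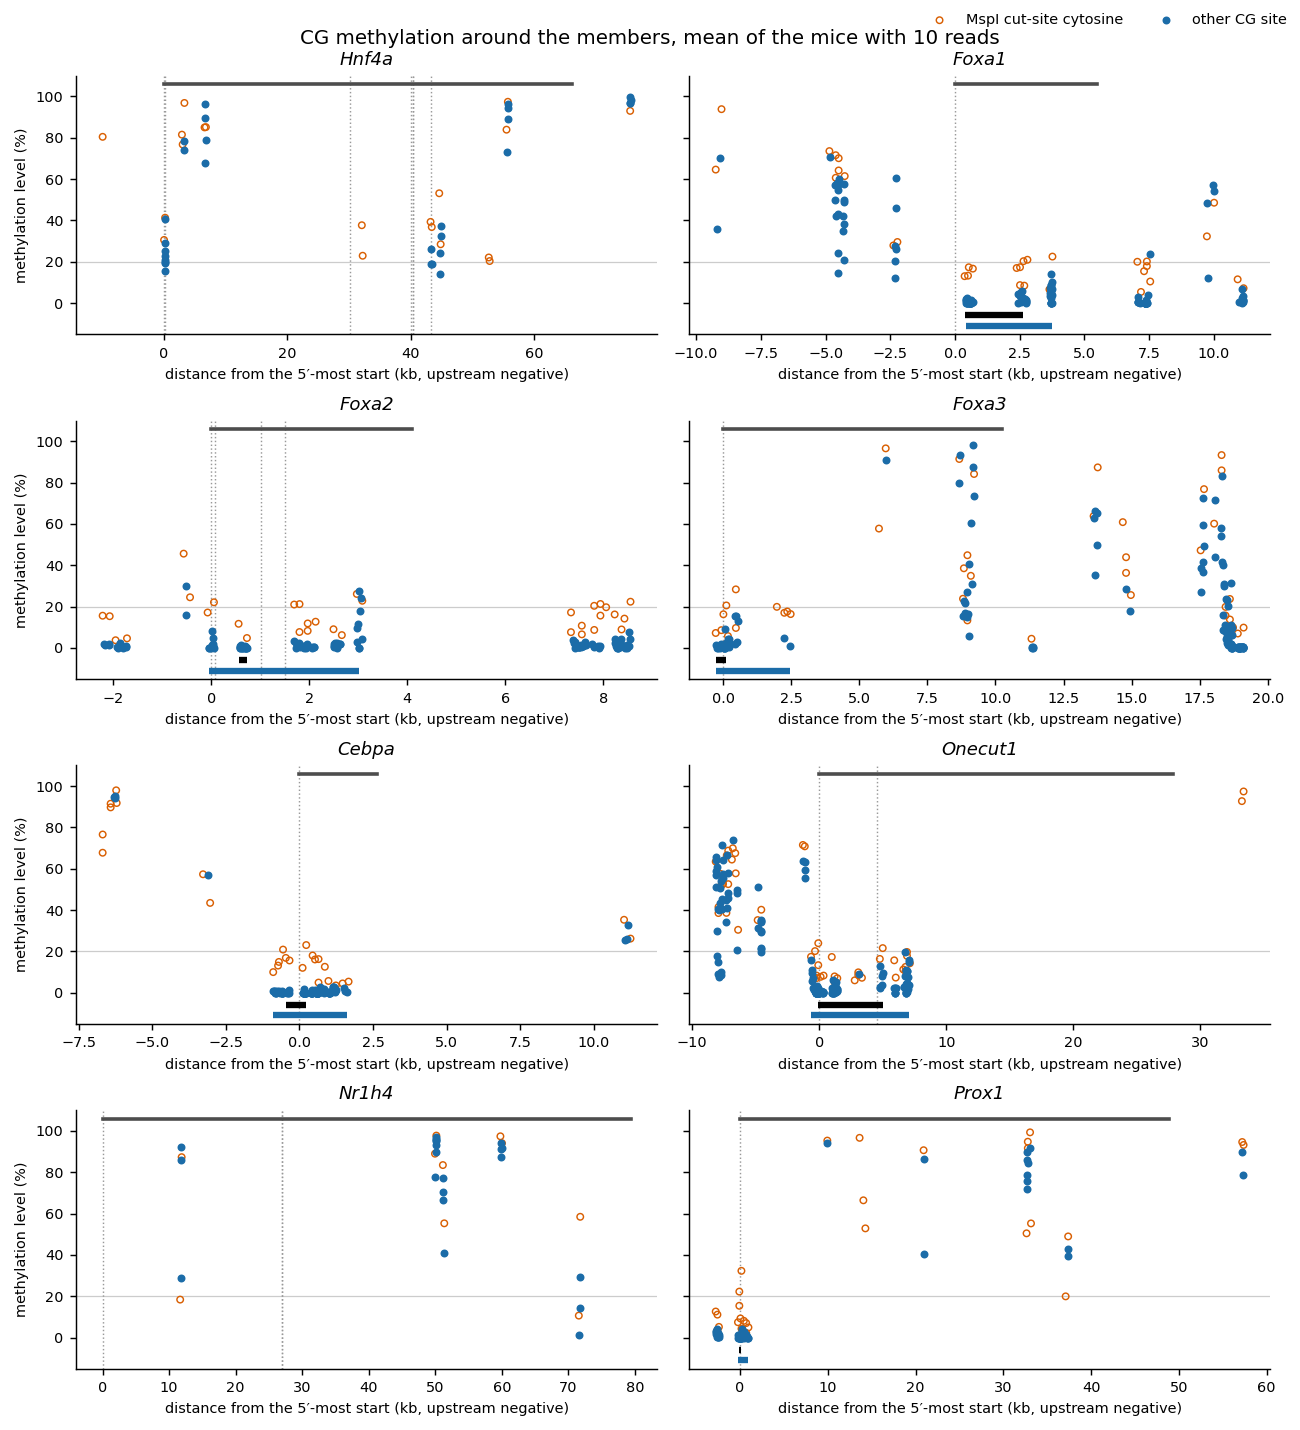
Methylation level of each CG site (y axis, percent, mean of the mice with 10 reads) against distance from the 5′-most start (x axis, kb, upstream negative) in the windows of the 8 genes. Open orange circles are cytosines at MspI cut sites and filled blue circles are other CG sites, the grey bar at the top is the gene, dotted lines are annotated starts, the black bar is the unmethylated stretch over every site and the blue bar the stretch without cut-site cytosines. Low sites run through the parts read of Cebpa, Foxa1, Foxa2 and the 5′ end of Onecut1. Hnf4a has no stretch at the 3 of its 7 starts with a measured site within 500 bp, and no start of Nr1h4 was measured.

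An unmethylated stretch was taken as the run of consecutive CG sites below 20% from the measured site nearest to a start, within 500 bp, until a site at or above 20% or a gap of over 2000 bp. For a gene with several annotated starts, the longest run at any of them was kept. Of the 8 genes, 7 had a measured site near a start and 6 of these had a stretch, where 82.1% of measured protein-coding genes had one. The median of the 6 lengths was 530.5 bp, beside a median of 464 bp over the 11348 genes with a stretch. Onecut1 had 5070 bp (59 sites), Foxa1 2244 bp (50 sites), Cebpa 679 bp (28 sites), Foxa3 382 bp (24 sites), Prox1 217 bp (15 sites) and Foxa2 171 bp (19 sites). Onecut1 ranked 7 in length among all genes, with Runx1 (5218 bp) next above and Pax2 (5063 bp) next below. Foxa1 was longer than 97.3% of genes, next to Eef2 (2244 bp) and Gm10125 (2241 bp), and Cebpa was longer than 64.9%, level with Ado and Dyrk1b (both 679 bp). Foxa2 exceeded only 20.8% of genes, Prox1 27.6% and Foxa3 43%. Without the B6 male library, Foxa2 and Prox1 still measured 171 and 217 bp. Lengths depended on the limits. When runs were ended at gaps of over 1000 bp, Onecut1 measured 1496 bp and Foxa1, which has a gap of 1692 bp, 319 bp. With a limit of 10% in place of 20%, Onecut1 measured 416 bp, Prox1 212 bp and Foxa2 147 bp, and the other 3 genes had no stretch. Leaving out other libraries changed some lengths. Foxa2 measured 1875 bp without the B6 female and 1243 bp without the BXD female, Foxa1 3377 bp without the B6 male and 3393 bp without the DBA male, and Cebpa 1107 bp without the DBA male or without the BXD female.

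Of the 12 ends of these stretches, 10 were at a measured site and 2 at a gap, and each of the 10 sites (20.3% to 32.3%) was a cytosine of the CCGG at which a read begins. Levels were then compared in the longer stretches of the 6 genes that are found when cut-site cytosines are left out, in which the mean over mice of each other site is below 20% by the rule and that of a cut site need not be. There, cut-site cytosines were at 13.7 ± 4.34% (mean ± SD, n = 8 mice) and the other CG sites at 1.73 ± 0.501%. The cut-site level ranged from 9.62% to 20.9% and was above the level of the other sites in 8 of 8 mice. Over the stretches of all protein-coding genes, found in the same way, the levels were 12.9 ± 5.09% and 1.26 ± 0.391%. Its cause was not tested.

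**Figure D2:**
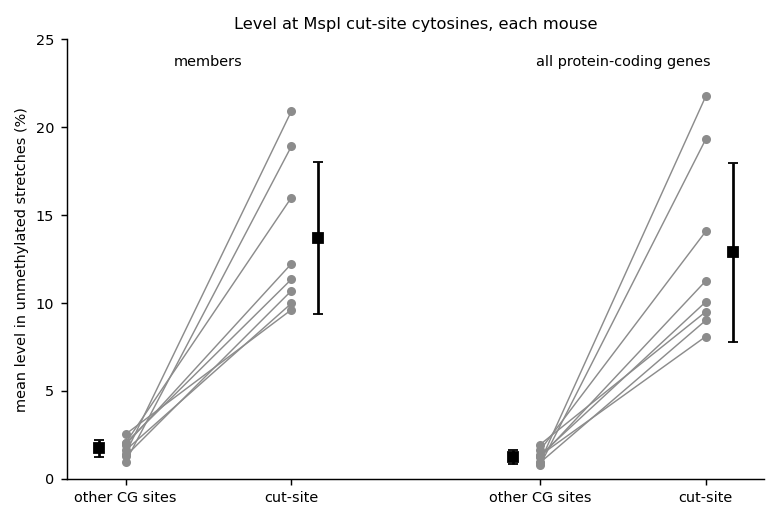
Mean methylation level (y axis, percent) at MspI cut-site cytosines and at other CG sites within unmethylated stretches found without cut-site cytosines, for the 6 genes with such a stretch and for all protein-coding genes. Grey points joined by lines are single mice, squares and bars are mean ± SD over 8 mice. In each mouse the cut-site cytosines are higher, at 9.62% to 20.9% in the stretches of the members.

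Without cut-site cytosines, the order of the genes changed and the stretches were longer. Again 6 of 7 genes had a stretch, beside 88.9% of 13489 measured protein-coding genes, and the median of the 6 was 2900 bp beside 577 bp for all genes with one. Onecut1 measured 7710 bp and again ranked 7, between Pitx1 (7721 bp) and Ebf2 (7524 bp). Foxa1 followed with 3324 bp, next to Tob2 (3325 bp) and Atp5d (3323 bp), and Foxa2 with 3061 bp, between Myc (3062 bp) and Mdga1 (3059 bp). Foxa3 measured 2739 bp, Cebpa 2498 bp and Prox1 1108 bp. Of genes with a stretch, 99.9% were shorter than Onecut1, 98.2% than Foxa1, 97.7% than Foxa2, 96.7% than Foxa3, 95.9% than Cebpa and 76.8% than Prox1. Only the Foxa2 stretch ended at a measured site on both sides. Both ends of Foxa1, Foxa3, Cebpa and Prox1 and the downstream end of Onecut1 were at gaps of over 2000 bp. How far the low level goes into these gaps was not measured. The largest change was that of Foxa2, from 171 to 3061 bp, which held 4 cut sites of 20% or more, at 56, 1693, 1802 and 2971 bp, with 20.99% to 26.1%.

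**Figure D3:**
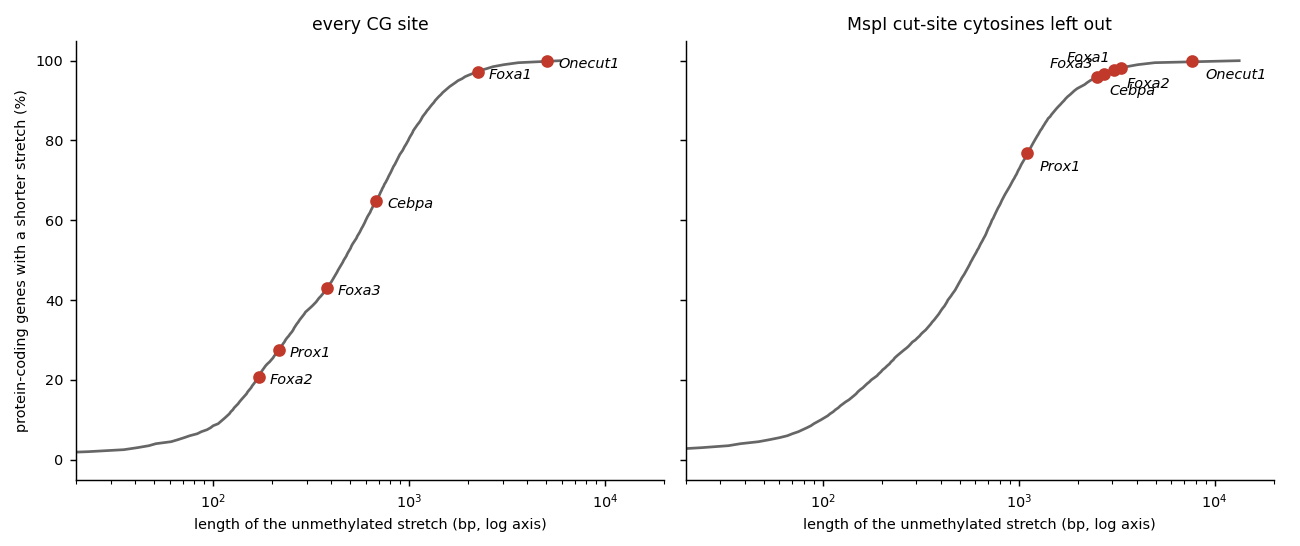
Share of protein-coding genes with a shorter unmethylated stretch (y axis, percent) against stretch length (x axis, bp, log scale), with every CG site at left and without MspI cut-site cytosines at right. The grey line covers all genes with a stretch and red points are the 6 genes with one. Onecut1 is at the upper end of both panels, and Foxa2, Foxa3 and Cebpa move from 20.8%, 43% and 64.9% to 97.7%, 96.7% and 95.9%.

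Onecut1, a cut-homeodomain factor of hepatocytes and bile duct development (chr9:74709728-74737591, plus strand), had the longest stretch of the 8 in both versions, with a gap of 1410 bp without a measured site in the first and 1708 bp in the second. It ran from 77 bp before the start to 4992 bp after it through the first exon and into the intron, and without cut sites from 627 bp before to 7082 bp after. The mean level over its sites was 3.34% and 2.93% in these 2 versions. Both versions include a second annotated start of Onecut1, 4563 bp after the 5′-most one. The 6 sites from 1292 to 1142 bp before the start had 55.6% to 71.5%, while the nearest site on the promoter side of them, 652 bp before the start, was at 17.4%. Further out, 63 sites from 8154 to 4566 bp upstream had a median of 45.8% (7.58% to 73.8%), and 56 of them were between 20% and 80%. At the 12 upstream sites read in every mouse the lowest, median and highest mice were at 35.8%, 39.7% and 47.6% (mean 40.9 ± 3.83%, SD, n = 8), so the intermediate level was present in each mouse. A microRNA annotated as AC100600.1 starts 8828 bp after the Onecut1 start. The 2 downstream sites averaged 95.1%.

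Onecut1 body sites outside the promoters numbered 69, all below 20%, with a mean of 5.44%, but the last of them lay 7129 bp after the start, so that the remainder of the 27864 bp gene was not measured. Only 3 body sites were read in all 8 mice, where the lowest, median and highest mice were at 1.22%, 2.28% and 12.5%. The highest was the DBA male, with 16 reads at each site, and the other 7 mice lay at or below 4.19%.

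Foxa1, a forkhead pioneer factor (chr12:58641618-58647108, minus strand), had a stretch inside the gene. The first site read lay 371 bp after the start, and the run went on to 2614 bp, or to 3747 bp in the last exon without cut sites. Body level over 63 sites was 4.66%, and 95.2% of those sites were below 20%. The last of them lay 3763 bp after the start, so that the remainder of the 5491 bp gene was not measured. At the 17 body sites read in all 8 mice, the lowest, median and highest mice had 2.11%, 5.51% and 12.2% (mean 6.14 ± 3.67%). The body was lower than in all but 4.60% of 12250 protein-coding genes with a body level, whose median was 75%. Of the 2430 such genes of 10 kb or less, like Foxa1, 14.8% were lower, and their median was 53.1%.

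Upstream of Foxa1 the picture was different. The 32 sites from 4852 to 2225 bp before the start had a median of 49.4% (11.9% to 73.6%), and 30 of them were intermediate. Downstream, 24 sites 7062 to 7455 bp after the start, past the end of the gene, averaged 0.460% without cut sites, and 9 sites around 11 kb averaged 1.98%. Between them, 6 sites near 10 kb had 12.2% to 57.2%. No other annotated gene starts in the Foxa1 window.

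Foxa2, the second pioneer factor (chr2:147868613-147872705, minus strand), had 4 annotated starts and was low at most of the sites read in its window. Of 151 sites, 138 were below 20% and none reached 80%. The 29 body sites averaged 6.62%, and the 48 promoter sites 3.86%. With every site, the run of 171 bp was that of the start at 1021 bp, and the run at the 5′-most start had 125 bp. The starts at 73 and 1505 bp had no stretch, with the nearest sites at 22.1% and 20.99%. Without cut sites, all 4 starts shared the run of 3061 bp. At the 12 body sites read in all mice the lowest, median and highest mice were at 2.31%, 3.13% and 5.43% (mean 3.31 ± 0.960%), the least spread among the bodies with 5 such sites except that of Cebpa. Without cut sites, 2 further runs lay beyond the promoter stretch. One covered 1668 bp from 2187 to 520 bp upstream with a mean of 2.17% over 13 sites. Of these, 12 lay between 2187 and 1718 bp upstream, and only 1 at 520 bp, next to the site at 519 bp that ended the promoter stretch. With every site, the run there had 498 bp, from 2215 to 1718 bp upstream. The other covered 1158 bp from 7384 to 8541 bp after the start with 1.48% over 42 sites, within 500 bp of a start of the transcript 9030622O22Rik. Sites near 3 kb, in the coding part of the last exon, had 0% to 27.8% and formed the downstream edge.

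Foxa3, the third forkhead gene of this family and one used strongly in liver (chr7:19598631-19608887, minus strand), was low at its 5′ end and mixed further in. Its 36 promoter sites averaged 4.65%. The stretch of 382 bp began 273 bp before the start, and without cut sites it reached 2472 bp past the start. This longer one had 33 sites and spanned a gap of 1662 bp without a measured site. In the intron near 6 kb, 3 sites had 57.8% to 96.6%. The 23 sites in the coding exon from 8672 to 9214 bp covered nearly the whole scale, from 5.79% to 98.2%, with 6 below 20%, 11 intermediate and 6 at 80% or above. The body as a whole averaged 40.4% over 34 sites, and 21.2% of genes were lower.

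Past the Foxa3 gene, 22 sites from 13604 to 17659 bp after the start had a median of 48.3%. Nearer to the gene, 5 sites from 11323 to 11369 bp averaged 1.09%. A further unmethylated run of 444 bp (36 sites, 0.773% without cut sites) began at 18662 bp and lay at the start of Irf2bp1, which encodes a transcriptional corepressor. Sympk, for a scaffold of the RNA 3′ end machinery, starts 839 bp before Foxa3. The 32 downstream sites read in all mice had 17.5%, 19.5% and 22% in the lowest, median and highest mice (19.7 ± 1.69%), and no Foxa3 promoter or body site was read in all 8.

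Cebpa, a leucine-zipper factor of hepatocyte metabolism (chr7:35904312-35906945, plus strand), is a single-exon gene and had the lowest body level of the 8. All 65 body sites were below 20%, with a mean of 1.74%, and only 1.02% of genes, or 2.92% of those of 10 kb or less, were lower. At its 8 body sites read in every mouse the lowest, median and highest mice were at 0.154%, 0.551% and 2.34% (0.789 ± 0.742%). Including the cut sites, the window held 3 runs that lay in a row, of 329 bp upstream, 679 bp at the start and 1287 bp over the coding exon, separated by single cut sites. Without them these were 1 run from 889 bp before to 1608 bp after the start with a mean of 0.513% over 109 sites.

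Methylation around Cebpa rose on both sides. The 9 sites from 6689 to 6212 bp upstream had 67.8% to 98.0%, and 3 sites near 3 kb upstream had 43.5% to 57.3%. On the other side, 5 sites 11029 to 11248 bp after the start had 25.7% to 35.3%, and the 2 of them read in every mouse averaged 30.5 ± 7.76%. No CG between 3036 and 893 bp upstream, or between 1668 and 11029 bp after the start, was read in 3 mice, so that the points at which the level changes are not resolved.

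Prox1, a homeodomain factor of hepatoblast migration and of lymphatic endothelium (chr1:191945660-191994559, minus strand), had a stretch at a CG-rich promoter. It covered 217 bp, and 1108 bp from 239 bp before to 868 bp after the start without cut sites (mean 0.811% over 40 sites). Over all alternatives the length ranged from 18 bp, on sites read in all 8 mice, to 1195 bp. The lincRNA Gm17566 starts 384 bp after the Prox1 start. No CG between 243 and 2414 bp upstream had 10 reads in any mouse, so whether the low level goes on there was not measured. Beyond this gap, a group of 20 sites from 2778 to 2414 bp upstream was low at each site (0.246% to 12.6%). At the 8 upstream sites read in every mouse, the lowest, median and highest mice were at 2.796%, 3.82% and 8.19%.

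The inner body of Prox1 was methylated. Over 24 sites from 9875 to 37377 bp the median was 81.7%, with 12 sites at 80% or above, 11 intermediate and 1 just below 20%. The 2 coding-exon sites near 10 kb averaged 94.8%. The mean over all 36 body sites was 49%. At the 2 body sites read in all mice the lowest and highest mice were at 77.5% and 96.2% (88.1 ± 7.20%). Tagged reads around Prox1 in the library labelled B6 male were 22.8% DBA. That library was at 95% at the 2 body sites and highest at the upstream sites, with 8.19%, where the DBA male had 7.95%. Without cut sites the same library had 0.957% at 4 upstream sites, within the range of 0.644% to 1.86% of all mice.

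Hnf4a, the orphan nuclear receptor on which much of the hepatocyte programme depends (chr2:163332544-163398646, plus strand), has 7 annotated starts, and 3 of them had a measured site within 500 bp. None of the 3 had a stretch, with the nearest sites at 30.6%, 20.96% and 26.2%. These values were near the limit, and whether a start had a stretch depended on it. With a limit of 30% in place of 20%, a stretch of 162 bp appeared. With 20 reads, without the B6 female or without the BXD male, the call came down to a single site below 20%. The 10 sites 56 to 221 bp after the upstream start had 15.4% to 41.3% (median 24%), and the 11 sites from 43215 to 44850 bp around the most downstream start 14.2% to 53.2% (median 28.5%). Starts near 40 kb, including that of the form used in adult liver, had no site within 500 bp.

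Levels within Hnf4a changed several times along the gene. The 11 sites of the first intron from 2948 to 6831 bp had 67.9% to 96.9%. Intronic pairs of sites at 32 kb and at 52 kb were low to intermediate, at 30.3% and 21.2% on average, and all 4 were cut-site cytosines. The 6 sites from 55515 to 55735 bp were at 73.2% to 97.4%, and the 5 downstream sites at 93.03% to 99.6%. Over its 27 body sites the mean was 64.4%, with 37.2% of genes lower.

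At 4 promoter sites of Hnf4a read in all mice, the lowest, median and highest mice were at 23.8%, 27.5% and 51.7%. The highest was the DBA male, with 10 to 15 reads a site, and the next was at 32.4%. Mean and SD were 30.4 ± 8.98% with it and 27.3 ± 2.76% without it. The 6 body sites had 40.2%, 44.1% and 50.4% (44.5 ± 3.45%), and the 3 downstream sites 93.3%, 95.9% and 98.2% (95.5 ± 1.76%).

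Nr1h4, which encodes the farnesoid X receptor for bile acids (chr10:88916979-88996330, minus strand), was the gene with the fewest data. Only 3.10% of the CGs of its window were read, and no site lay within 500 bp of any of its 3 starts. The nearest sites were 11654 bp from the upstream start and 15051 bp from the inner starts, so that its promoters were not measured. The 9 coding-exon sites averaged 94.9%, and the 22 intronic sites 61.6%. In the intron, 5 sites from 71580 to 71794 bp had 1.43% to 58.5% with 3 below 20%, in contrast to 6 sites near 60 kb with 87.2% to 97.4%. The mean over all 31 body sites was 71.2%, beside a median of 75% over genes, and 44.3% of genes were lower. No other annotated gene starts in its window.

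**Figure D4:**
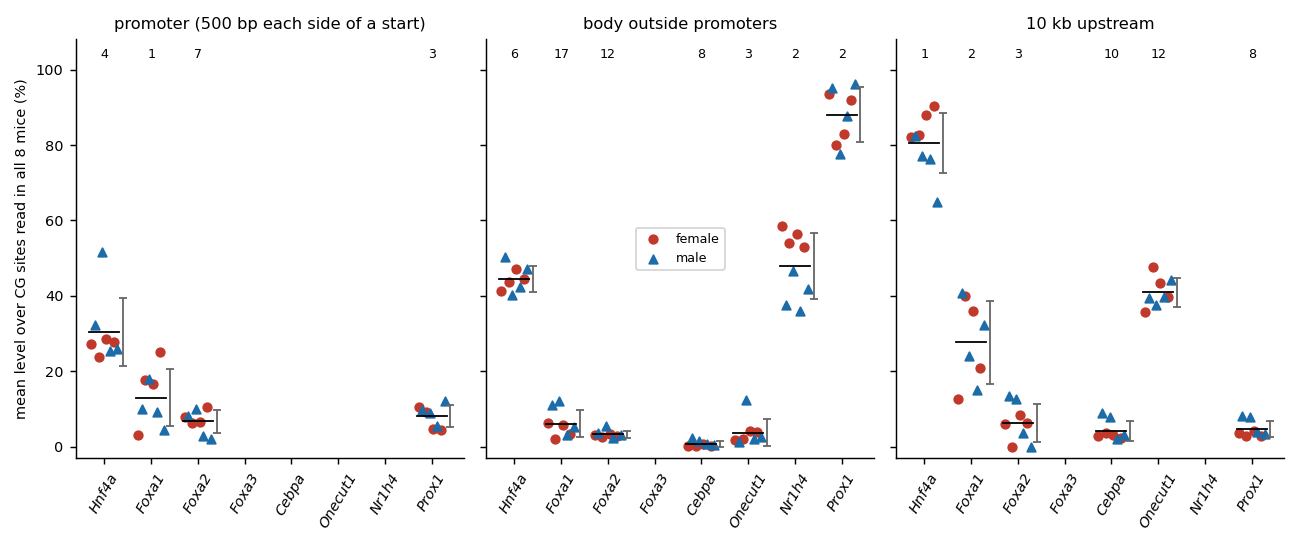
Mean methylation level (y axis, percent) of single mice at the CG sites read in all 8 mice, by gene, for promoters, bodies and the 10 kb upstream. Red circles are females, blue triangles males, the black line is the mean, grey bars are ± 1 SD over 8 mice, and the number of sites stands above each column. The DBA male stands apart for Hnf4a at the promoter (51.7%) and for Onecut1 in the body (12.5%), and the 4 females lie above the 4 males for the 2 body sites of Nr1h4.

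The order of body levels over sites read in 3 mice was Cebpa (1.74%), Foxa1 (4.66%), Onecut1 (5.44%), Foxa2 (6.62%), Foxa3 (40.4%), Prox1 (49%), Hnf4a (64.4%) and Nr1h4 (71.2%). Of all genes, 11.8% had a body below 20%, and of the 2430 genes of 10 kb or less 32.6% did. The SDs over mice at the sites read in all mice overlapped for Foxa1, Onecut1 and Foxa2 (6.14 ± 3.67%, 3.76 ± 3.68% and 3.31 ± 0.960%), whereas Hnf4a at 44.5 ± 3.45% lay apart from those 3. Hnf4a and Nr1h4 (48.0 ± 8.72%, on 2 sites) overlapped, and both were higher over the sites read in 3 mice. Of the 6 Hnf4a sites read in all mice, all but that at 6784 bp were cut-site cytosines. Prox1, on 2 sites, was at 88.1 ± 7.20%, above both, whereas over the sites read in 3 mice it was below both, so that its place in the order depends on the sites.

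Other liver factors and factors of other lineages are given for context. Among 24 other liver transcription factors and nuclear receptors, 21 had a measured start and 20 a stretch, with a median length of 933 bp, and 1442 bp without cut sites. The longest was that of Onecut2 (4593 bp), and Nr1i3 had none. Of 20 transcription factors of other lineages, 17 were measured and 14 had a stretch, with a median of 814.5 bp, and 2489 bp without cut sites. Wt1 had the longest (4483 bp) and Nkx2-5 the shortest (43 bp), and Myf5, Gata1 and Sox2 had none. Over the sites within 500 bp of the start Myf5 was at 84.4% and Gata1 at 80.5%, whereas Sox2 was at 4.09% and had a stretch of 2760 bp without cut sites. Beside these, the median of the 6 genes was 530.5 bp with every site and 2900 bp without cut sites. The former lay below both list medians, but it moved to between 382 and 1175 bp when each mouse was left out (1175 bp without the BXD female), so no order is given. Of 14 target genes of the 8 factors, 4 were measured, and Tfrc (226 bp) and Pklr (99 bp) had a stretch while Apob and Pck1 were at 23.9% and 35.8% near the start. The lists were assembled with earlier results known, and no test was made between them.

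Stretches were also measured in single mice, each on its own sites. On the sites read in all 8 mice, which give 3 of the genes a stretch, lengths also differed between mice. They were 157 to 1649 bp for Foxa2 (819 bp in each mouse without cut sites) and 18 to 24 bp for Prox1 (18 bp in each mouse without cut sites). For Foxa1 they were 1 to 2427 bp in 7 mice, and the DXB female had no stretch. Cebpa, Foxa3 and Onecut1 had no such site near a start. The lengths below are on each mouse's own sites. For Cebpa without cut sites the shortest, median and longest were 1947, 2268 and 2498 bp over 8 mice, and for Foxa2 2043, 2869.5 and 3077 bp. For Onecut1 they were 1867, 4580 and 7710 bp, for Prox1 831, 980.5 and 1343 bp and for Foxa3 192, 844.5 and 3417 bp. Over 6 mice, those for Foxa1 were 2331, 3296.5 and 3324 bp. On these own sites, which differ between mice, the SD over mice was 225 bp without cut sites and 917 bp with every site for Cebpa. It was 449 and 1196 bp for Foxa2, 506 and 1478 bp for Foxa1 and 147 and 419 bp for Prox1. For Foxa3 it was 1313 and 418 bp and for Onecut1 2566 and 2270 bp. Mice with no stretch or no site near the start are left out of these values, so that they cover 8 mice without cut sites, or 6 for Foxa1, and 8 mice with every site, or 7 for Cebpa, Foxa1 and Foxa3.

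Females and males were compared over 4 mice each. Both libraries of 76-base reach, with the highest cut-site levels in the stretches (18.9% and 20.9%), were males, so that sex and library type cannot be fully told apart. Body levels could be tested for Foxa2, Hnf4a, Cebpa and Foxa1, which had at least 5 body sites read in all mice. None of the 4 had a p below 0.05 in the two-sided exact permutation test, where 4.22% of 4594 protein-coding genes had a p below it. The smallest exact p of 0.0286 leaves an adjusted p below 0.05 out of reach unless most genes have it, so that the 0% (0 of 4594) with one says nothing of the genes. Cebpa was at 0.335 ± 0.194% in females and 1.24 ± 0.836% in males (exact p = 0.0571). Foxa1 was at 4.43 ± 2.05% and 7.85 ± 4.42% (exact p = 0.286), Foxa2 at 2.98 ± 0.359% and 3.65 ± 1.31% (exact p = 0.429) and Hnf4a at 44.1 ± 2.43% and 45% ± 4.62 (exact p = 0.743). The mice of the sexes overlapped in each. Paired within strain, Cebpa was higher in the male in 4 of 4 strains, with differences of female minus male of -2.02 points in B6, -1.18 in DBA, -0.0876 in BXD and -0.342 in DXB (exact sign-flip p = 0.125, the smallest that 4 pairs allow). Nearly all of this difference came from 1 of the 8 sites, a cut-site cytosine 984 bp after the start, which was at 18.7% in the B6 male, 11.5% in the DBA male and 0.690% to 5.56% in the other 6 mice. Over the 7 other sites Cebpa was at 0.0839 ± 0.0998% in females and 0.0953 ± 0.191% in males (exact p = 1), and the male was higher in 1 of 4 strains, the female in 2 and neither in B6. Foxa1 and Foxa2 were higher in the male in 3 of 4 strains and Hnf4a in 2 of 4. Without cut sites the male was higher in 1 of 4 strains for Foxa1, whose difference turned to 0.801 points, higher in females (exact p = 0.200), and in 2 of 4 for Foxa2. Hnf4a could not be tested in this way, as all of its 6 body sites but that at 6784 bp were cut-site cytosines. Without the DBA male, the difference for Hnf4a turned from -0.912 to 4.95 percentage points, higher in females (exact p = 0.0286, the smallest that the remaining mice allow). The sites read in all mice also change with it. The sign turned as well with 5 reads, with counts summed and without either B6 mouse, so no direction is given for Hnf4a. Without the DXB male, the difference for Cebpa was -1.16 points (exact p = 0.0286), and when the cut-site cytosine was left out too it turned to 0.0839 points (exact p = 0.429).

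F1 mice and parents were compared in the same way. All libraries of 50-base reach were F1 mice. Both libraries of 76-base reach, with the highest cut-site levels in the stretches (18.9% and 20.9%), were parents. Generation and library type can thus not be fully told apart. Bodies were at 2.93% and 3.69% for Foxa2 (exact p = 0.343), 45.2% and 43.8% for Hnf4a (exact p = 0.629), 0.488% and 1.09% for Cebpa (exact p = 0.371) and 4.36% and 7.92% for Foxa1 (exact p = 0.229). None of the 4 had a p below 0.05, beside 5.31% of all genes tested, and the 0% (0 of 4594) with an adjusted p below it was again set by the smallest exact p. Without the DBA female, Foxa1 differed by -5.50 points (exact p = 0.0286), and without cut sites by 0.343 points in the other direction. Cebpa turned too, to 0.0807 points, without cut sites. Hnf4a could again not be tested without them.

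At single CG sites, 388 sites of the 8 genes could be tested for a difference between the sexes. By limma, 0 of 388 had an adjusted p below 0.05 with a difference over 20 percentage points, where 0.0411% of 452783 sites did (0.00496% on autosomes). A quasi-binomial model of the counts called 0 of 388 and also 0 of all 452783 sites, so its 0 does not bear on the 8 genes. At an unadjusted p below 0.05, 28 of 388 sites passed, beside 5% of all sites, and at an unadjusted p below 0.001 with a difference over 20 points 2 of 388 passed, beside 0.204%. That count was 0 with 5 reads, over sites read in all 8 mice and without the B6, BXD or DXB male. It was 1 without cut sites and without any 1 of the females. Every female lay above every male at 22 of 388 sites, beside 3.01% of all sites and 2.43% on autosomes, and every male lay above every female at 1 of 388, beside 1.34% and 1.27%. Of the 22 sites, 6 were in Foxa3, 4 each in Hnf4a and Nr1h4, 3 in Foxa1, 2 in Cebpa and 1 each in Foxa2, Onecut1 and Prox1. At levels of 20% or above there were 15 (of 132 tested, beside 3.41% of all such sites), none of them in Foxa2 or Onecut1. Some others were near 0, as in Foxa2 (1.84% in females and 0% in males). Some were close neighbours, as at 49961 and 49975 bp of Nr1h4 and 6611 and 6647 bp of Hnf4a, and are not independent.

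Among the sites without overlap, the widest differences were in introns of Nr1h4 and Hnf4a, at sites picked after their values were seen. The 150 bases around them (mm9, CGs in capitals) are chr10:88945101-88945250 on the minus strand and chr2:163339116-163339265 on the plus strand.
Nr1h4 intron: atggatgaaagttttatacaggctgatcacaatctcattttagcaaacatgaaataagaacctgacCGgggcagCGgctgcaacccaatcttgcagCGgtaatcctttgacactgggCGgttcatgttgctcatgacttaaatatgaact
Hnf4a intron: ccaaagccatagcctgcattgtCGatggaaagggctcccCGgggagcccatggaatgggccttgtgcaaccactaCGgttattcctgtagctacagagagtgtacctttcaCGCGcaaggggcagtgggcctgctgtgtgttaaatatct
In the Nr1h4 sequence the 4 CGs from 5′ to 3′ had 91.99%, 84.005%, 75.1% and 80.96% in females and 72.2%, 52.2%, 55.01% and 73.1% in males. In the Hnf4a sequence CGs number 2 to 5 had 94.1%, 78.04%, 93.4% and 95.5% in females and 72.95%, 54.3%, 85.5% and 96.8% in males. The sexes overlapped at 3 of the 4 Nr1h4 CGs. The B6 male was the highest mouse at the first (100%) and the 4th (87.9%) and at 69.0% lay above the DXB female, at 65.8%, at the third. The means rest on different mice, since the 4th CG of the Nr1h4 sequence and the 4th and 5th of the Hnf4a sequence were read in 4 mice and the others in 7.

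At the second CG of the Nr1h4 sequence, 51154 bp after the start, the females were at 88.4%, 87.1%, 83.6% and 76.9% and 3 males at 65.5%, 44.4% and 46.5%. Each female was above each male, and the difference was 31.8 ± 6.00 points (SE, limma adjusted p = 0.373). The DBA male was not read there at 10 reads. At 2 sites further on, all 8 mice were read. At 51318 bp the females had 50%, 45.5%, 50.3% and 47.4% and the males 25.3%, 33.3%, 29.95% and 44.1%, again without overlap. At 51356 bp the females had 67.1%, 62.6%, 62.4% and 58.5% and the males 50%, 60%, 42.03% and 39.7%, where the DBA male lay above the lowest female. At 49961 bp, a difference of 11.7 ± 1.14 points had the smallest p of the 388 sites (94.0% against 82.3%, limma adjusted p = 0.0763).

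At the third CG of the Hnf4a sequence, 6647 bp after the upstream start, females were at 81.3%, 79.8%, 76.9% and 74.2% and 3 males at 59.3%, 51.6% and 52.1%. The groups did not overlap and the difference was 23.7 ± 2.64 points (limma adjusted p = 0.105). At the second CG, 6611 bp after the start, it was 21.1 ± 3.01 points (limma adjusted p = 0.196). Outside these introns, a site 3278 bp upstream of Cebpa had 65.9% in females and 46.0% in males (limma adjusted p = 0.530). With overlap between the sexes, a Foxa3 site 8840 bp after the start had 27.5% in females and 53.2% in males (limma adjusted p = 0.910). The 1 site with every male above was 4821 bp upstream of Foxa1, with 66.7% in females and 76.6% in males.

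**Figure D5:**
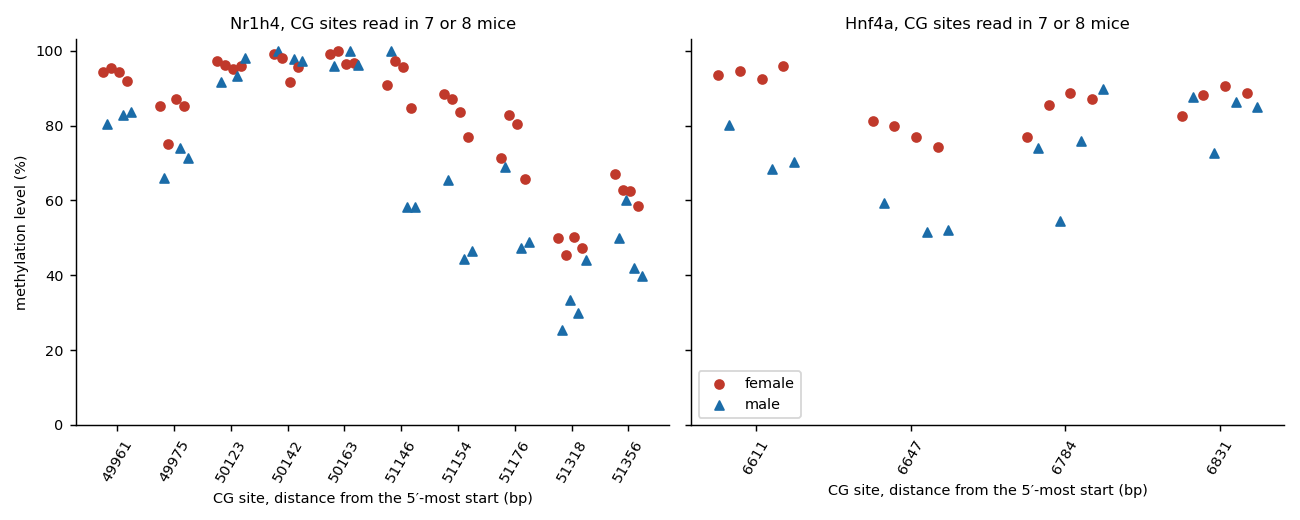
Methylation level (y axis, percent) of single mice at CG sites of Nr1h4 (left) and Hnf4a (right) read in 7 or 8 mice, ordered by distance from the 5′-most start (x axis, bp). Red circles are females and blue triangles males, and no male of the DBA strain was read at most of these sites. Every female lies above every male at 49961, 49975, 51154 and 51318 bp of Nr1h4 and at 6611 and 6647 bp of Hnf4a, and the sexes overlap at the other sites, including 51146 and 51176 bp on either side of 51154 bp.

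The parent strains were compared within each sex, with 1 mouse a side, so that the intervals cover counting error only and the comparison is of these mice. A site was called when each level lay outside the exact 95% binomial interval of the other and the levels were over 50 points apart. Between the females 1 of 776 sites was called, beside 0.549% of 887174 sites, and between the males 0 of 288, beside 0.423% of 323010 sites. The 1 site lay 18338 bp after the Foxa3 start, close to Irf2bp1, with 15.7% of 51 reads in the B6 female and 68.8% of 16 reads in the DBA female. In the males the same site was at 40% in B6 and 35.2% in DBA, and so did not differ in that direction between the males. At over 30 points apart, 12 of 776 sites were called in females (1.55%, beside 1.62% of all sites) and 1 of 288 in males (0.347%, beside 1.55%).

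For each gene, the site read in all mice with the largest SD was 43408 bp after the start for Hnf4a (36.8 ± 14.1%), 532 bp for Foxa1 (17.3 ± 16.9%), 8232 bp for Foxa2 (16.2 ± 14.0%), 18338 bp for Foxa3 (40.1 ± 15.3%), 728 bp upstream for Cebpa (13.1 ± 11.4%), 7934 bp upstream for Onecut1 (39.9 ± 8.96%), 51356 bp for Nr1h4 (55.3 ± 10.2%) and 32782 bp for Prox1 (91.6 ± 10.04%). All of these but those of Foxa3 and Onecut1 were cut-site cytosines. The DBA male had 70% on 10 reads at the Hnf4a site, where the other mice had 27.4% to 41.3%. At the Foxa1, Foxa2 and Cebpa sites the B6 male and the DBA male were the highest mice, and these 2 libraries had the highest mean levels at cut-site cytosines in the stretches (18.9% and 20.9%). These are the largest of 2 to 34 sites a gene. The median SD over such sites was 8.55 points for Hnf4a, 2.61 for Foxa1, 2.18 for Foxa2, 4.76 for Foxa3, 0.896 for Cebpa, 5.03 for Onecut1, 9.95 for Nr1h4 and 3.21 for Prox1. For comparison, the median SD over all 176951 sites read in every mouse was 3.502 percentage points, with 1.51 for low sites and 9.14 for intermediate ones. The 95th percentile over all these sites was 13.4.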

How the data were processed

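RRBS data from liver of 8 mice were used. According to the methods, the authors cut DNA with MspI, selected fragments by size, used BS Seeker for alignment to mm9 and retained unique alignments. Its version, any trimming and how duplicates were handled are not given in the sources. For each mouse and allele class the authors deposited counts of reads for each cytosine, split into methylated and unmethylated, and a level as a fraction from 0 to 1, which was read only to check the counts. The authors also deposited 4 tables of their own comparisons (mean fractions, intervals, differences and p-values), which were not used, including 12 columns for single parents.

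Counts were added over allele classes and levels taken as percentages at CG sites with at least 10 reads. Genes, starts and sequences came from NCBIM37 (mm9) with GENCODE annotation, and positions count from 1. The promoter was 500 bp each side of a start. All 8 genes were described, with each gene's most variable site, each called site, the genes next in stretch length for the 3 longest stretches, and the extremes of each list, of which 1 is not reported here. Members and lists were chosen with earlier results of these data known. The sites shown for sex were named after their values were seen.

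Stretches were described without a test. Body levels were compared by an exact permutation test over 70 assignments, and single sites by limma, both adjusted by Benjamini-Hochberg over everything tested, and parents by exact binomial intervals. Each mouse is the only one of its strain and sex, and p-values measure the spread between the mice. With 10 reads, 1 read is worth 10 points, reads are not independent molecules, and intervals cover counting error only. Alternatives were other limits on level, reads, mice and gaps, strands added, other tests, subsets by read reach and leaving out each mouse. Leaving out cut-site cytosines and pairing the sexes by strain were added after seeing the data. Tests were tested on simulated data. Among 50000 sites, limma recovered 61.5% of 200 sites changed by 40 points and 98.5% of 200 changed by up to 80 points. With the strain as a block it recovered 17.1% of 193 and 65.4% of 191. Changed sites were of intermediate level. Their share was larger than the 0.0411% of sites called in the data, which makes the adjusted limit easier to pass. No change below 40 points was simulated, so these values do not give the recovery of smaller differences. Software was R 4.3.3 with limma 3.58.1 and Python 3.11.15 with matplotlib 3.10.9, pysam 0.24.0, scipy 1.17.1, pandas 2.3.3 and numpy 2.4.6.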

Additional observations from a re-analysis of the deposited data

Results flagged for a closer look

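Among 21 gene and region levels over the 8 mice, 3 had a mouse far from the others, and each time it was the DBA male, the library with the fewest CG sites. Chance gives such a gap in about 1 of 20 groups. At the Hnf4a promoter (4 CG sites) the DBA male was at 51.7%, with 10 to 15 reads a site, the nearest mouse at 32.4% and the other 7 at 27.3 ± 2.76% (SD). In the Foxa2 body (12 CG sites) it was at 5.43%, with 47 to 223 reads a site, the nearest mouse at 3.66% and the other 7 at 3.01 ± 0.473%. In the Onecut1 body (3 CG sites) it was at 12.5%, with 16 reads a site, the nearest mouse at 4.19% and the other 7 at 2.52 ± 1.11%. The DBA male also had the highest cut-site level in the stretches, 20.9%, and the part of this in the 3 values was not tested.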

How the results depend on the processing

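The median stretch length (530.5 bp) was 2753 bp with a limit of 30%, 1656.5 bp with 5 reads, 2129.5 bp with 1 site skipped and 2900 bp without cut-site cytosines, and 382 to 1175 bp when each mouse was left out. Foxa2 moved from 171 bp to 1875 bp without the B6 female and 1243 bp without the BXD female, Foxa1 from 2244 bp to 3377 bp and 3393 bp without the B6 male and the DBA male, and Cebpa from 679 bp to 1107 bp without the DBA male or the BXD female. The median body level of the 7 genes with body sites read in all 8 mice (6.14%, some on 2 or 3 sites) was 14.6% with 5 reads, 20.4% over each mouse's own sites (8 genes in both) and 11.2% with promoters of 1000 bp.

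Bodies with an exact p below 0.05 for sex numbered 0, but 1 with 5 reads, 1 over own sites and 0 to 2 when each mouse was left out, and for F1 mice 0 to 1. Single sites called for sex numbered 0 under each alternative with an adjusted p and when each mouse was left out (0 to 0). With unadjusted p they numbered 2, but 0 to 2 when each mouse was left out. For the female parents 12 sites were called at over 30 points (1.62% of all sites) and 0 with 20 reads (0.521%), in place of 1, and for the male parents 1 at over 30 points (1.55%) and 1 with 5 reads (0.682%), in place of 0.

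Directions that turned, in percentage points for females minus males, were Hnf4a at 4.38 with 5 reads, 13.2 with counts summed, 11.4 over own sites and 0.0823 in libraries of 100-base reach, and -1.90 to 4.95 when each mouse was left out (0.0585 without the B6 female, 0.890 without the B6 male), Cebpa at 0.0839 without cut sites and the DXB male, Foxa1 at 0.801 without cut sites, 0.596 without these and the DXB male and 1.18 at 100-base reach, and Foxa2 at 0.532 at 100-base reach. For F1 minus parents they were Hnf4a at -0.549 with 5 reads and -0.0823 at 100-base reach, Foxa2 at 0.0284 with 20 reads and 1.46 over own sites, Cebpa at 0.0134 over own sites, 0.0807 without cut sites, -0.879 to 0.159 when each mouse was left out (0.159 without the DBA male) and 0.405 at 100-base reach, and Foxa1 at 0.343 without cut sites. Their causes were not tested.

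Replicate numbers pair nothing here, but each strain has a female and a male. With the strain as a block, added after seeing the data, the number of bodies and of single sites called for sex stayed at 0. The 4 pairs allow no exact p below 0.125, and limma on within-strain differences called 0 of 344 sites of the 8 genes and 0 of all 425332 sites (29 and 25170 at an unadjusted p below 0.05), so this 0 says nothing of the 8 genes. RRBS read between 3.10% and 26.6% of the CGs in the 8 windows; stretch ends lie between measured sites.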
